A study of Mus musculus with 12 samples.

Results

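Imprinted genes are read mainly from 1 parental allele, and 10 that act in growth or its restraint were followed here through the culture of mouse hippocampal neural stem cells: Grb10, Cdkn1c, Igf2, H19, Dlk1, Meg3, Plagl1, Peg3, Mest and Peg10. They were taken by symbol from a table of 34745 genes, and each symbol gave 1 row. They were chosen by their counts and FPKM at passage 2 and passage 10 in these same libraries, above all by the loss of Grb10, with earlier results known. The differences of these 10 genes between passage 10 and passage 2 are therefore a description: calls of the fit over all genes are counted for them once, and nothing is read from those counts. Tests of the 10 are given only for vesicles against saline at passage 10. The passage 10 saline libraries took part in the choice and stand in this contrast too, so these tests are not independent of it.

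RNA of wild-type C57BL/6 neural stem cells from the hippocampus was sequenced in 3 groups of 4 libraries each. Passage 10 cells had received small extracellular vesicles of embryonic stem cells (ESC-sEVs, membrane particles shed by those cells) since passage 2 (P10 EV), or an equal volume of PBS over the same passages (P10 PBS). The passage 2 cells (P2) are the early cultures. Cells of all groups grew in DMEM/F12 with B27, EGF, bFGF, heparin and antibiotics. In the library names a replicate number carries the same culture code in all 3 groups, so that P10 EV, P10 PBS and P2 of one number are matched, while nothing in the labels ties a code to 1 animal. The p-values below ignore that match unless a replicate block is named, and rest on the spread among these libraries alone. The measurement is of bulk RNA, in which fewer cells of a kind and less RNA per cell cannot be told apart.

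Genomic imprinting rests on methylation of DNA that is laid down differently in egg and sperm and then kept through cell division at short control regions, each of which can govern several neighbouring genes. In mice the paternally expressed genes of this group tend to favour growth, as with the growth factor Igf2, and the maternally expressed ones tend to restrain it, as with the signalling adaptor Grb10 and the cell cycle inhibitor Cdkn1c. Several of them are abundant in the embryo and decline after birth. The reads were not assigned to a parental allele, so the values below are of both alleles together.

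The libraries held between 10736538 and 16807647 counts. All 10 neural stem cell markers listed, among them Nes, Sox2 and Vim, passed the filter on low counts, with a summed level of 3447 to 3888 CPM, the count over the scaled library total, in P10 EV, 3283 to 4177 CPM in P10 PBS and 3612 to 4313 CPM in P2. The 10 markers of meninges, fibroblasts and pericytes, cells in which H19, Igf2 and Dlk1 can be abundant, summed to 333 to 418 CPM in P10 EV, 229 to 366 CPM in P10 PBS and 260 to 609 CPM in P2. Of these, 4 entered the fit. Lum was the only one at 0 in all 12 libraries, while Col1a1 was detected in every library, at 0.683 to 2.02 CPM in P10 EV, 0.581 to 1.43 CPM in P10 PBS and 0.143 to 5.26 CPM in P2. Col1a2 reached at most 0.677 CPM and Dcn 0.143 CPM in any library. Cspg4, which entered the fit, is also among the oligodendrocyte lineage markers listed, so the sum is not of these cells alone. Foxc1, a factor of the meninges, was called higher for P10 PBS over P2, at 17.8 to 40.8 CPM in P10 PBS against 5.71 to 12.6 CPM in P2. The 8 astrocyte markers summed to 2144 to 2628 CPM in P10 EV, 2545 to 4117 CPM in P10 PBS and 1867 to 6377 CPM in P2, with 8 of 8 below 0 on the log2 scale and none called for P10 EV over P10 PBS, and 1, Slc1a2, called lower for P10 EV over P2. The 10 neuronal markers summed to 498 to 682 CPM in P10 EV, 519 to 777 CPM in P10 PBS and 575 to 783 CPM in P2, and the 10 of the oligodendrocyte lineage to 2610 to 2953 CPM in P10 EV, 2370 to 3097 CPM in P10 PBS and 2286 to 3431 CPM in P2. Summed microglial markers reached at most 2.43 CPM, those of choroid plexus 16.2 CPM and those of endothelium 49.5 CPM in any library. The part of these cells in the results was not tested. Transcripts of liver, another tissue rich in Igf2 and H19 before birth, were found in P10 EV replicate 1, P10 PBS replicate 1 and P2 replicates 1 and 2, which held Alb at 15.5 to 20.7 CPM of the unscaled total, while no other library passed 0.145 CPM. The 11 liver markers summed to 23.4 to 82.6 CPM in P10 EV, 32.3 to 107 CPM in P10 PBS and 61.1 to 204 CPM in P2. This sum did not follow Alb: P10 PBS replicate 3 and P2 replicate 3, with Alb at 0, summed to 82.7 and 84.8 CPM. It is therefore not a measure of liver transcripts alone. The cultures numbered 1 and 2 held between 28794 and 49377 counts of Xist in every group, and those numbered 3 and 4 held at most 15.

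Sequence is shown first for the genes whose levels moved most or were highest, as the 250 bases before a transcript start in RefSeq on mouse build GRCm38.p6, printed 5′ to 3′ on the strand of the gene. Capitals mark CG dinucleotides, the sites at which an imprint is written. The first pair belongs to Grb10, on the minus strand at chr11:12037421-12037670 and, before a start downstream of it, at chr11:12027972-12028221, both within the span of the gene as deposited. The others lie before Mest, on the plus strand at chr6:30737800-30738049, and before Meg3, on the plus strand at chr12:109540746-109540995.
Grb10 upstream start: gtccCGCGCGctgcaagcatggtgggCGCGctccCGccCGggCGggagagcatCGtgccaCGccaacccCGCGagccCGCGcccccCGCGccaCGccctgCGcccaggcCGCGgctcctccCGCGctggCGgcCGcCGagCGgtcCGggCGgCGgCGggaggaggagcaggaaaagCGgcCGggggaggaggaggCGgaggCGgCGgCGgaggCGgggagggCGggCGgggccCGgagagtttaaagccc
Grb10 downstream start: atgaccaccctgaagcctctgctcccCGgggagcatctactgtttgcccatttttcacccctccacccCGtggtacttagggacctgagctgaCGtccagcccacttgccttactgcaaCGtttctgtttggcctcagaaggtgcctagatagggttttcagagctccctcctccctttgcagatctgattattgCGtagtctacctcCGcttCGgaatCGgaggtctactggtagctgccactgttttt
Mest: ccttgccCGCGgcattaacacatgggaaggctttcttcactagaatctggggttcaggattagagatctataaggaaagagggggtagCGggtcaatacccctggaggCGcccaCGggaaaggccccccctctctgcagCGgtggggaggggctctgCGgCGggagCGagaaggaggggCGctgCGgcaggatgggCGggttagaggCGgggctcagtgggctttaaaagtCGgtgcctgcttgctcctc
Meg3: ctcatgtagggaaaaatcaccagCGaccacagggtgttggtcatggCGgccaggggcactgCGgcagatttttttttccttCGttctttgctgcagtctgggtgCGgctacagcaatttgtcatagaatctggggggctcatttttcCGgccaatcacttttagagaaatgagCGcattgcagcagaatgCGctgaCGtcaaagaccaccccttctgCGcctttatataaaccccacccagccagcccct
The upstream Grb10 window holds 40 CG, more than 98.7% of the 32851 promoter windows of this length, whose median is 6. The downstream one holds 8 CG, the Mest window printed 14 and the Meg3 window printed 10. The letters TGCCGC, which the imprint-keeping factor ZFP57 recognises when methylated, were searched on both strands, where the reverse reads GCGGCA. They stand 2 times in the printed Mest window, 1 time in the printed Meg3 window and in neither Grb10 window, against 8.68% of all windows with at least 1 match. These are not the only starts: another Mest window, chr6:30733256-30733505, holds 7 CG and no match, another Meg3 window, chr12:109545148-109545397, holds 0 CG and no match, and a further Mest window lies 3 bases from the printed one. A match is a string of letters, and methylation was not measured. RefSeq windows were at hand for 7 of the 10 genes.

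Grb10 encodes an adaptor protein that binds the activated insulin and IGF1 receptors and dampens their signal, and in mice it is read from the maternal allele in most tissues and from the paternal allele in neurons. The gene lies on the minus strand of chromosome 11, from 11930508 to 12038683, in coordinates as deposited, which here and for 8 of the 10 genes are those of GENCODE M21 on GRCm38. It gave 16, 12, 49 and 66 reads in the P10 EV libraries, in the order of replicate number, 9, 4, 4 and 11 reads in P10 PBS, and 911, 122, 1056 and 1315 reads in P2. The 3 groups did not overlap: every P2 library stood above every P10 EV library, and every P10 EV library above every P10 PBS library. Scaled to depth, this was 0.946, 1.01, 4.03 and 4.10 CPM in P10 EV, 0.613, 0.367, 0.374 and 0.799 CPM in P10 PBS, and 65.0, 8.91, 89.3 and 108 CPM in P2. P2 replicate 2 thus held far less Grb10 than the other 3 early libraries, and yet more than any late one. Some markers of the oligodendrocyte lineage moved beside it, and others did not. Of the 10 listed, 8 entered the fit. For P10 PBS over P2, 6 were below 0, 2 above 0 and 1 called lower. For P10 EV over P2, 5 were below 0, 3 above 0 and 1 called lower. Sox10, which specifies the lineage, stood at 7.09, 3.95, 18.9 and 9.56 CPM in P10 EV, 1.84, 2.94, 3.18 and 5.67 CPM in P10 PBS and 5.28, 108, 119 and 55.1 CPM in P2, and was the one called for P10 PBS over P2. Pdgfra, the receptor of its precursors, averaged 42.7 CPM in P10 EV, 17.4 CPM in P10 PBS and 83.8 CPM in P2, and Mbp, of myelin, 2.38 CPM in P10 EV, 2.18 CPM in P10 PBS and 8.87 CPM in P2. Cnp, also of myelin, averaged 51.3 CPM in P10 EV, 68.4 CPM in P10 PBS and 155 CPM in P2 and was the one called for P10 EV over P2. Olig1 and Olig2, of the same list, were not lower on average in the late groups and were far more abundant. For P10 PBS over P2 their log2 fold changes were 0.12 ± 0.14 and 0.255 ± 0.147 (SE), the first within its SE. Olig1 averaged 1353 CPM in P10 EV, 1437 CPM in P10 PBS and 1318 CPM in P2, and Olig2 1003 CPM, 977 CPM and 819 CPM in the same order. P2 replicate 1, with 65.0 CPM of Grb10, was the lowest P2 library in Sox10, and P2 replicate 2, with 8.91 CPM of Grb10, held 108 CPM of it. The part of these cells in the Grb10 levels was not tested.

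Mean Grb10 was 0.538 ± 0.208 CPM in P10 PBS and 67.9 ± 43.2 CPM in P2 (SD, n = 4 each), 126-fold lower in P10 PBS, with a fitted log2 fold change of -6.91 ± 0.82 (SE). In P10 EV it averaged 2.52 ± 1.78 CPM (SD, n = 4), 27.0-fold below P2, with a log2 fold change of -4.75 ± 0.70 (SE). These contrasts share the P2 libraries. Between the late groups, Grb10 was higher in P10 EV at 4 of 4 replicate numbers, by 2.17 ± 0.84 on the log2 scale (SE, 95% confidence interval 0.26 to 4.07), and did not pass edgeR's quasi-likelihood test after Benjamini-Hochberg adjustment (adjusted p = 0.631). With 28 reads over the 4 P10 PBS libraries, the size of that difference is known only within this wide interval. Without the 4 libraries that held liver transcripts, the log2 fold change of Grb10 was 2.52 ± 0.56 for P10 EV over P10 PBS (SE, adjusted p = 0.352 in edgeR), -7.51 ± 0.53 for P10 PBS over P2 and -4.99 ± 0.43 for P10 EV over P2 (SE). That fit kept only replicates 3 and 4 of P2, both low in Xist, and dropped P2 replicate 2, the P2 library lowest in Grb10. Replicate 2, high in Xist, stayed in both late groups. Passage and Xist are therefore partly confounded in its contrasts with P2. In P10 EV the reads came mostly from replicates 3 and 4, and the log2 ratio of P10 EV over P10 PBS at one replicate number, with 0.5 added to each CPM, was 0.38, 0.80, 2.37 and 1.82 in the order of the numbers.

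**Figure D1:**
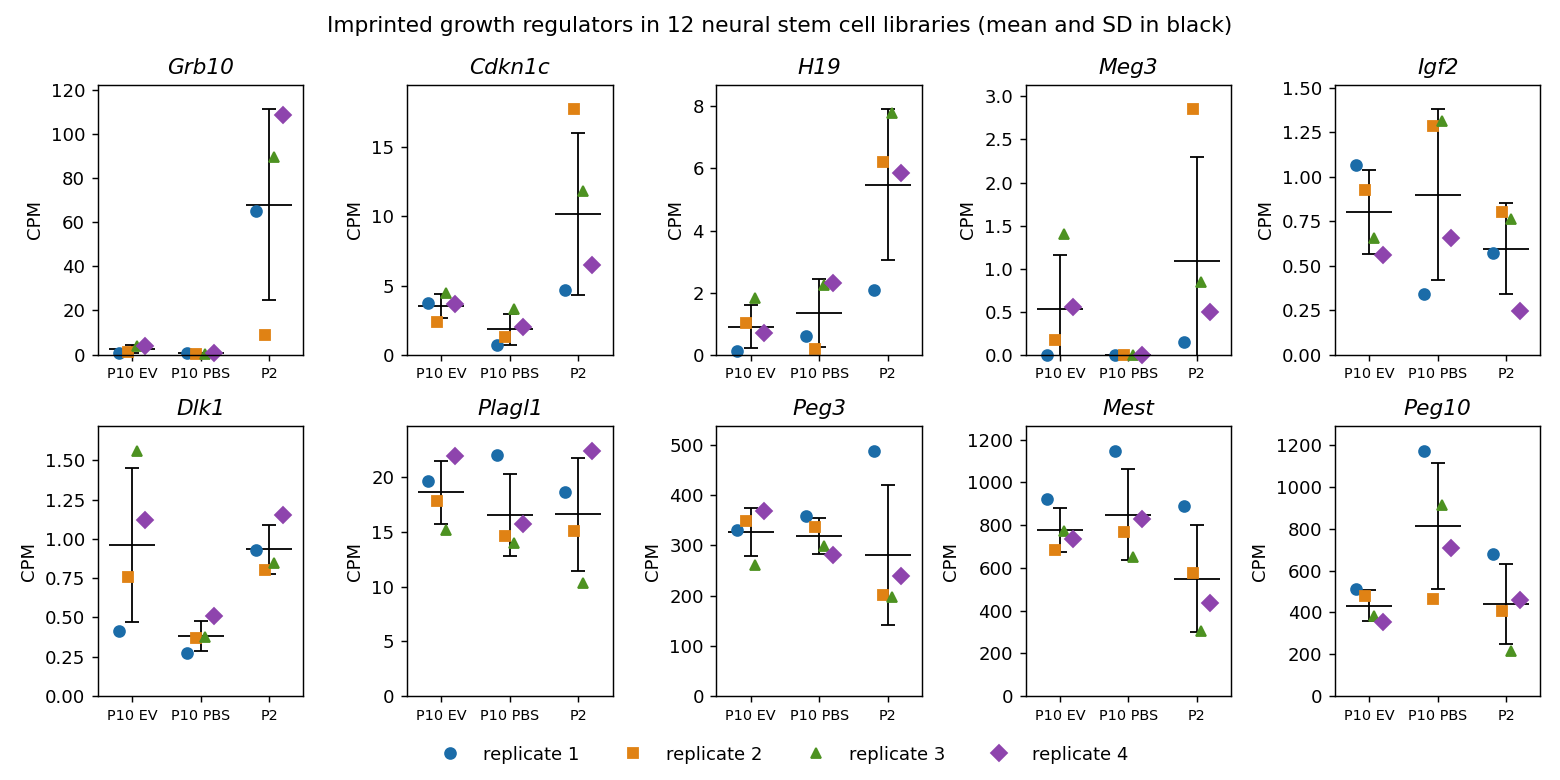
Level in CPM (vertical axis, linear, scaled per gene) of the 10 genes in P10 EV, P10 PBS and P2, with 1 point per library shaped and coloured by replicate number and bars for the mean ± SD of 4 libraries, cut at 0. Grb10 lies between 0.367 and 4.10 CPM in the 8 late libraries and between 8.91 and 108 CPM in P2, while the groups overlap for Plagl1, Peg3, Mest and Peg10.

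Cdkn1c encodes p57Kip2, an inhibitor of cyclin-dependent kinases that holds progenitor cells out of the cycle, and it is maternally expressed. The deposited coordinates place it on the minus strand at chr7:143458350-143461050. It gave 63, 28, 54 and 59 reads in P10 EV, 10, 14, 35 and 28 in P10 PBS, and 66, 243, 140 and 79 in P2. Levels were 2.35 to 4.44 CPM in P10 EV, 0.681 to 3.28 CPM in P10 PBS and 4.71 to 17.8 CPM in P2, so that each late group lay wholly below P2 and the late groups overlapped. Mean Cdkn1c was 3.55 ± 0.870 CPM in P10 EV, 1.82 ± 1.12 CPM in P10 PBS and 10.2 ± 5.87 CPM in P2 (SD, n = 4 each). The log2 fold change was -2.50 ± 0.49 (SE) for P10 PBS over P2 and -1.52 ± 0.46 (SE) for P10 EV over P2. P10 EV stood above P10 PBS at 4 of 4 replicate numbers, by 0.98 ± 0.49 on the log2 scale (SE, 95% confidence interval -0.12 to 2.08), which did not pass the edgeR test (adjusted p = 0.732). P2 replicate 2, lowest of its group in Grb10, was highest in Cdkn1c at 17.8 CPM. That library also had the highest summed level of the liver markers, at 204 CPM, of which Alb made 21.5 CPM. It was highest too in the meningeal, fibroblast and pericyte markers, at 609 CPM against 229 to 418 CPM in the other 11. Of that sum, Col1a1 made 5.26 CPM and Foxc1 12.6 CPM. Neither sum is of those cells alone, and the part of either in the Cdkn1c level was not tested.

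Cdkn1c lies in an imprinted domain of chromosome 7 where the long RNA Kcnq1ot1, made from the paternal allele, silences neighbours on the same chromosome. Kcnq1ot1 was abundant, at 250 ± 83.7 CPM in P10 EV, 199 ± 43.3 CPM in P10 PBS and 222 ± 93.1 CPM in P2 (SD, n = 4 each), and the groups overlapped. It runs within Kcnq1 on the other strand, and whether counting used strand is not given in the sources used here. Phlda2, a maternally expressed brake on placental growth from the same domain, had no read in any of the 12 libraries. The 6 listed inhibitors of cyclin-dependent kinases outside the imprinted genes were all measured and edgeR and DESeq2 called none in any contrast. With an unadjusted p under 0.05 in edgeR there were 0 for P10 EV over P10 PBS, 1 for P10 PBS over P2 and 4 for P10 EV over P2. The shares over all genes were 7.24%, 13.6% and 19.2% in the same order. Without the libraries with liver transcripts, and likewise without P2 replicate 1, edgeR called 1 for P10 PBS over P2 and 2 for P10 EV over P2. Their median log2 fold change was -0.21 for P10 EV over P10 PBS, -0.27 for P10 PBS over P2 and -0.51 for P10 EV over P2. Cdkn1a (p21), which acts downstream of p53, averaged 229 ± 54.5 CPM in P10 EV, 267 ± 77.2 CPM in P10 PBS and 348 ± 81.0 CPM in P2, and Cdkn1b (p27) 90.9 ± 18.5 CPM in P10 EV, 110 ± 37.5 CPM in P10 PBS and 124 ± 49.4 CPM in P2 (SD, n = 4 each).

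H19, a maternally expressed long RNA that restrains growth and is the host of a microRNA, shares enhancers and a control region with Igf2 on chromosome 7, where H19 lies at chr7:142575529-142578143 and Igf2 at chr7:142650766-142666816, both on the minus strand. H19 gave 2, 12, 22 and 11 reads in P10 EV, 9, 2, 24 and 32 in P10 PBS and 29, 85, 92 and 71 in P2. P10 EV lay wholly below P2, while P10 PBS, at up to 2.32 CPM, overlapped the lowest P2 library at 2.07 CPM. The mean was 0.905 ± 0.706 CPM in P10 EV, 1.34 ± 1.10 CPM in P10 PBS and 5.48 ± 2.42 CPM in P2 (SD, n = 4 each). For H19 the log2 fold change was -2.02 ± 0.70 (SE) for P10 PBS over P2 and -2.63 ± 0.73 (SE) for P10 EV over P2. Between P10 EV and P10 PBS it was -0.61 ± 0.75 (SE, adjusted p = 0.899 in edgeR), lower in P10 EV at 3 of 4 numbers. H19 was the only maternally expressed gene of the 10 with a lower mean in P10 EV than in P10 PBS.

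Igf2, the paternally expressed growth factor of the same pair, was barely measured. It gave 18, 11, 8 and 9 reads in P10 EV, 5, 14, 14 and 9 in P10 PBS and 8, 11, 9 and 3 in P2, and the 3 groups overlapped. Its log2 fold change was -0.13 ± 0.46 (SE, 95% confidence interval -1.17 to 0.92, adjusted p = 0.971 in edgeR) for P10 EV over P10 PBS. Against P2 it was 0.55 ± 0.48 (SE) for P10 PBS and 0.42 ± 0.47 (SE) for P10 EV. A difference of Igf2 between the groups was not detectable at this depth. Ins2, the next gene of the domain, had no read in any library.

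Dlk1 and Meg3 stand at opposite ends of the parental rule in 1 domain of chromosome 12. Dlk1 is a paternally expressed membrane protein related to the Notch ligands that supports neural stem cells in the mouse, and Meg3 is a maternally expressed long RNA. They lie on the plus strand, Dlk1 at chr12:109452823-109463336 and Meg3 at chr12:109541001-109571726. Dlk1 gave 7, 9, 19 and 18 reads in P10 EV, 4, 4, 4 and 7 in P10 PBS and 13, 11, 10 and 14 in P2. P10 PBS, at 0.273 to 0.508 CPM, lay wholly below P2, at 0.804 to 1.15 CPM, and P10 EV, at 0.414 to 1.56 CPM, overlapped both. The log2 fold change was -1.27 ± 0.43 (SE) for P10 PBS over P2 and 0.03 ± 0.38 (SE) for P10 EV over P2. Between P10 EV and P10 PBS it was 1.30 ± 0.42 (SE, 95% confidence interval 0.35 to 2.26), higher in P10 EV at 4 of 4 replicate numbers, and the edgeR test was not passed (adjusted p = 0.551).

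Meg3 gave 0, 2, 17 and 9 reads in P10 EV, none in the 4 P10 PBS libraries, and 2, 39, 10 and 6 in P2. The 4 P2 libraries all held Meg3 and the 4 P10 PBS libraries did not, while P10 EV replicate 1 was also at 0. Over a group this is 28 reads in P10 EV, 0 in P10 PBS and 57 in P2. A count of 0 in P10 PBS allows up to 3 reads over the group, or 0.0589 CPM, for counting error alone. The pooled Meg3 level of P10 EV was 8.53-fold above that limit, and the pooled P2 level 18.5-fold above it. Neither the error of these pooled levels nor the spread among libraries enters the ratios, so they are not lower bounds of the difference. Of the reads, 17 of 28 in P10 EV came from replicate 3 and 39 of 57 in P2 from replicate 2, and without these libraries, an alternative chosen after seeing the data, the ratios to the limit were 4.25-fold for P10 EV and 8.00-fold for P2. Too few libraries reached 10 reads for Meg3 to enter the main fit. With no filter on low counts, edgeR gave Meg3 an adjusted p of 0.683 for P10 EV over P10 PBS. A 2-sided exact permutation test of log2(CPM + 0.5) between P10 EV and P10 PBS gave p = 0.143 (n = 4 each), where the smallest p that 4 against 4 libraries can give is 0.0286.

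Rian, a maternally expressed long RNA made downstream of Meg3 in the same orientation, had 1, 0, 23 and 24 reads in P10 EV, 2, 0, 3 and 11 in P10 PBS and 5, 30, 13 and 21 in P2. The order of its libraries is like that of Meg3: replicates 3 and 4 led within P10 EV, and replicate 2 led within P2. Its log2 fold change was 1.42 ± 1.08 (SE, adjusted p = 0.827 in edgeR) for P10 EV over P10 PBS, -2.06 ± 1.06 (SE) for P10 PBS over P2 and -0.65 ± 0.94 (SE) for P10 EV over P2. Dio3, at the far end of the domain, had no read.

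**Figure D2:**
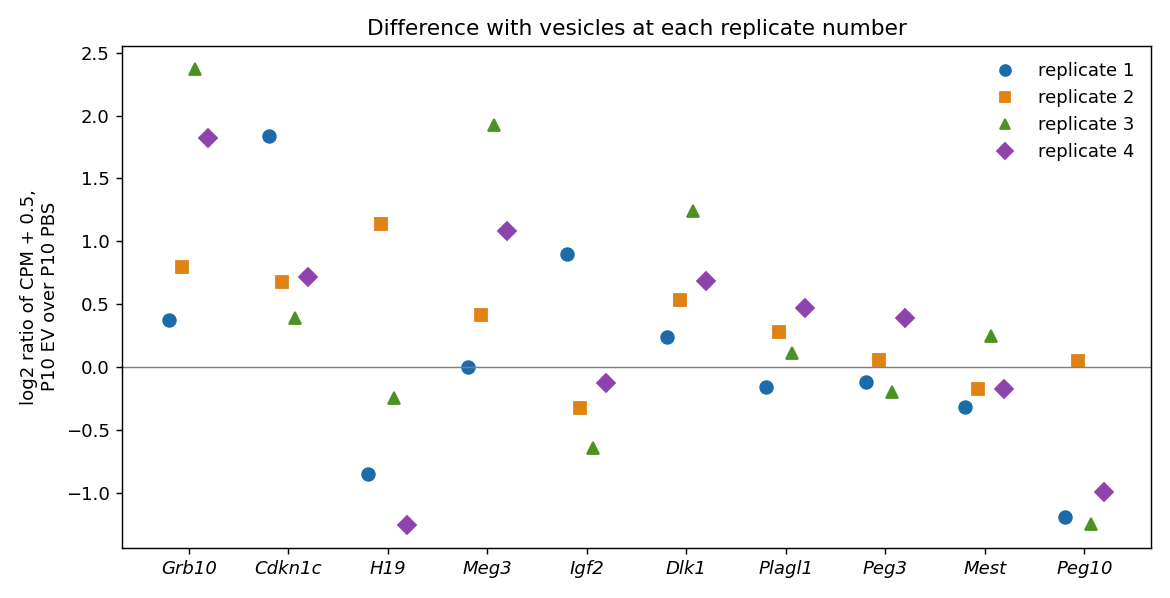
Log2 ratio of P10 EV over P10 PBS (with 0.5 added to each CPM) for each of the 10 genes at each of the 4 replicate numbers, 1 point per number. Grb10, Cdkn1c and Dlk1 lie above 0 at 4 of 4 numbers, and the Grb10 ratios at replicates 3 and 4 are 2.37 and 1.82, against 0.38 and 0.80 at replicates 1 and 2.

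In P10 EV, the libraries of replicates 3 and 4 held more Grb10, Dlk1, Meg3 and Rian than those of replicates 1 and 2. Dlk1 stood at 1.56 and 1.12 CPM in P10 EV replicates 3 and 4, against 0.414 and 0.756 CPM in replicates 1 and 2, and Meg3 at 1.40 and 0.559 CPM against 0 and 0.168 CPM. This divides the P10 EV libraries in the same way as Xist, with 6 and 15 reads in replicates 3 and 4, against 49377 and 36719 in replicates 1 and 2. Pdgfra divided them in this way too, at 24.3, 25.0, 63.3 and 58.3 CPM in the order of the numbers, as did Sox10, at 7.09, 3.95, 18.9 and 9.56 CPM. Igf2 and Peg10 divided these libraries the opposite way. In the order of the numbers, Igf2 stood at 1.06, 0.924, 0.658 and 0.559 CPM and Peg10 at 512, 479, 384 and 355 CPM. Cdkn1c did not follow this division, with 3.72 CPM in P10 EV replicate 1 and 3.66 CPM in replicate 4, nor did H19, Peg3, Plagl1 and Mest. The share of all genes that divide these libraries in either way was not counted, so nothing is read from the division. The same numbers did not divide Grb10 in P10 PBS, at 0.613, 0.367, 0.374 and 0.799 CPM. Nor did they divide Meg3 in P2, where replicate 2 was highest at 2.85 CPM. With 2 libraries on each side, the difference between the cultures was not tested.

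Plagl1, Peg3, Mest and Peg10 are paternally expressed and were measured at far greater depth, between 122 and 17227 reads a library. Plagl1 encodes a zinc finger factor that in mice acts on other imprinted genes, Cdkn1c, Igf2 and H19 among them, and lies on the plus strand at chr10:13060504-13131694. It had 18.6 ± 2.88 CPM in P10 EV, 16.6 ± 3.73 CPM in P10 PBS and 16.6 ± 5.16 CPM in P2 (SD, n = 4 each). Its log2 fold change was 0.17 ± 0.23 (SE, 95% confidence interval -0.36 to 0.69, adjusted p = 0.908 in edgeR) for P10 EV over P10 PBS. It was -0.00 ± 0.23 (SE) for P10 PBS over P2 and 0.17 ± 0.23 (SE) for P10 EV over P2. The group means of this gene therefore differed by less than the spread within P2.

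Peg3, a zinc finger protein that in mice affects growth, lies on the minus strand at chr7:6703892-6730421. It stood at 330, 350, 260 and 368 CPM in P10 EV, 359, 337, 298 and 281 CPM in P10 PBS and 489, 200, 197 and 239 CPM in P2. P2 replicate 1 was the highest of all 12 libraries, and the other 3 P2 libraries were the lowest of all. On the log2 scale the fold change was 0.04 ± 0.25 (SE, adjusted p = 0.987 in edgeR) for P10 EV over P10 PBS, 0.18 ± 0.25 (SE) for P10 PBS over P2 and 0.22 ± 0.25 (SE) for P10 EV over P2. Its neighbour Zim1, a maternally expressed zinc finger gene, had 8.16 ± 0.538 CPM in P10 EV, 7.89 ± 1.00 CPM in P10 PBS and 6.08 ± 2.43 CPM in P2 (SD, n = 4 each), with P2 replicate 1 again the highest of its group.

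Mest, which encodes a membrane protein of the hydrolase fold, was the most abundant of the 10 per length of transcript, at a mean of 113 FPKM in P10 EV, 118 FPKM in P10 PBS and 76.8 FPKM in P2. The gene lies on the plus strand at chr6:30723547-30748465. In CPM the libraries held 923, 681, 771 and 736 in P10 EV, 1149, 768, 650 and 831 in P10 PBS, and 888, 574, 304 and 434 in P2. Both late groups stood above P2 at 4 of 4 replicate numbers, and the ranges overlapped through P2 replicate 1. In the fit, the log2 fold change was 0.63 ± 0.28 (SE) for P10 PBS over P2, 0.50 ± 0.28 (SE) for P10 EV over P2 and -0.13 ± 0.27 (SE, adjusted p = 0.944 in edgeR) for P10 EV over P10 PBS. Copg2, which overlaps Mest on the other strand, had 114 ± 2.85 CPM in P10 EV, 124 ± 5.84 CPM in P10 PBS and 113 ± 14.9 CPM in P2 (SD, n = 4 each), and how reads of the overlap were assigned is not given in the sources used here. Cep41, upstream of Mest, also lay mostly higher in the late groups, at 17.5 to 24.6 CPM in P10 EV and 20.4 to 30.5 CPM in P10 PBS against 9.72 to 17.9 CPM in P2. The P10 PBS range of Cep41 did not meet that of P2, beside 2.58% of all genes that lay wholly higher in P10 PBS.

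Peg10, a gene derived from a retrotransposon and needed for the mouse placenta, lies on the plus strand at chr6:4747306-4760517. It held 512, 479, 384 and 355 CPM in P10 EV, 1174, 462, 912 and 710 CPM in P10 PBS, and 680, 404, 213 and 459 CPM in P2. P10 PBS replicates 1, 3 and 4 were the highest of all 12 libraries, and P10 PBS replicate 2 lay within the range of the other groups. Mean Peg10 was 433 ± 74.8 CPM in P10 EV, 815 ± 302 CPM in P10 PBS and 439 ± 193 CPM in P2 (SD, n = 4 each). The log2 fold change of P10 EV over P10 PBS was -0.91 ± 0.32 (SE, 95% confidence interval -1.65 to -0.18), lower at 3 of 4 numbers, and it did not pass the edgeR test (adjusted p = 0.601). For P10 PBS over P2 it was 0.89 ± 0.32 (SE), higher at 4 of 4 numbers, and for P10 EV over P2 -0.02 ± 0.32 (SE). Sgce, the paternally expressed gene that shares its promoter region with Peg10, stood at 30.7 ± 3.16 CPM in P10 EV, 31.3 ± 1.87 CPM in P10 PBS and 38.9 ± 7.14 CPM in P2 (SD, n = 4 each) and did not share the high P10 PBS values.

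**Figure D3:**
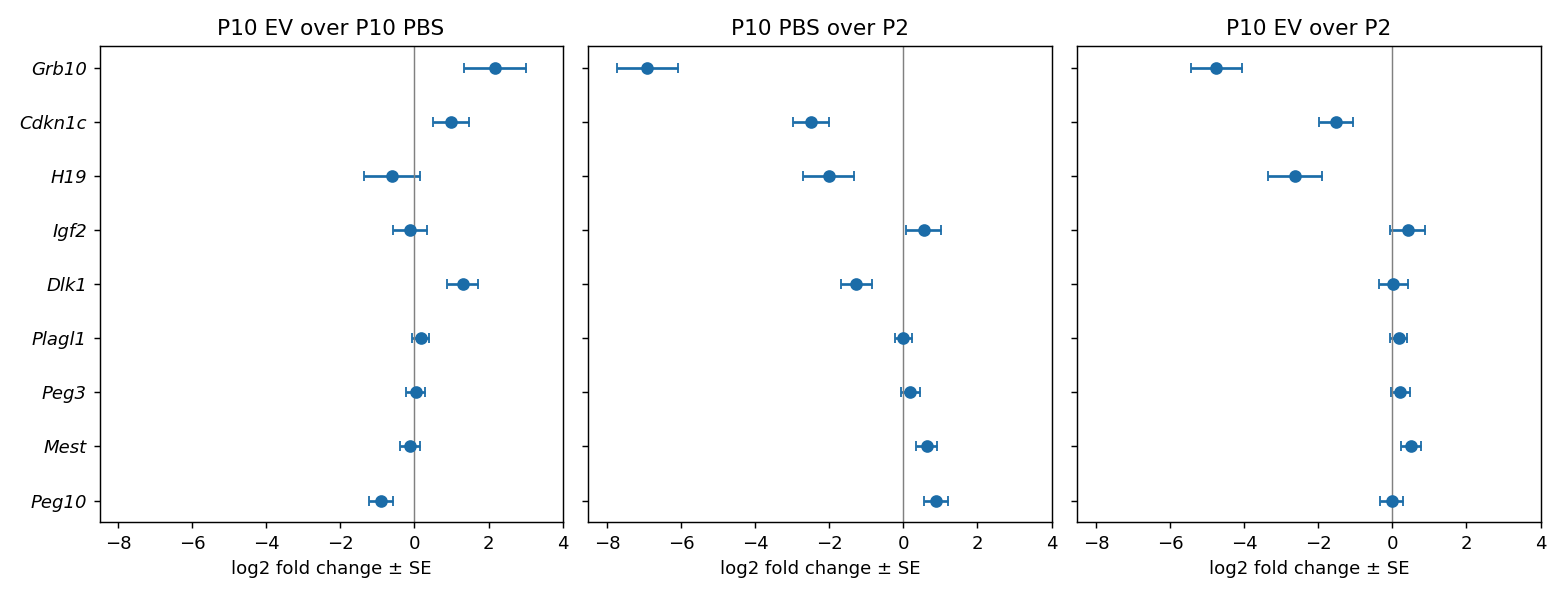
Log2 fold change (horizontal axis) with its SE from the edgeR fit to 12 libraries for the 9 genes that entered it, in panels for P10 EV over P10 PBS, P10 PBS over P2 and P10 EV over P2. Grb10 lies at 2.17, -6.91 and -4.75 in the order of the panels, and Peg3 at 0.04, 0.18 and 0.22.

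Set side by side per length of transcript, the 10 genes spanned a wide range. Mest, Peg10 and Peg3 together made up 97.8% to 98.6% of the summed FPKM of the 10 in P10 EV, 98.6% to 99.3% in P10 PBS and 82.4% to 95.5% in P2. Grb10 came next in P2, at a mean of 6.68 FPKM, against 0.258 FPKM in P10 EV and 0.0524 FPKM in P10 PBS. Cdkn1c averaged 1.29 FPKM in P10 EV, 0.641 FPKM in P10 PBS and 3.54 FPKM in P2, and its P2 libraries, at 1.67 to 6.09 FPKM, overlapped those of Grb10 at 0.852 to 10.9 FPKM. In both late groups Plagl1, at 1.18 FPKM in P10 EV and 1.01 FPKM in P10 PBS, stood above Grb10 in every library. Igf2, Dlk1 and Meg3 averaged at most 0.0679 FPKM in any group, and the order among them is not resolved at this depth.

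Over the 9 genes in the fit, none passed an adjusted p of 0.05 for P10 EV over P10 PBS, as was the case for 0% of the 16058 genes tested by edgeR, although 1163 genes (7.24%) had an unadjusted p under 0.05 and the Wald test of DESeq2 called 67 genes, none of the 9. At an unadjusted p under 0.05 edgeR had 3 of the 9. Grb10 was the only one of the 9 whose P10 EV and P10 PBS libraries did not overlap, and 3.74% of all genes lay in this way with P10 EV higher and 3.84% with it lower. Grb10, Cdkn1c and Dlk1 were higher in P10 EV at 4 of 4 numbers, as were 11.6% of all genes. Of the 9 genes 5 had a log2 fold change above 0, as had 51.5% of all genes, and their median was 0.04, against 0.01 over all genes. The P10 PBS libraries also entered the choice of the genes, so these counts are not independent of that choice.

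The contrasts with P2 entered the choice of the 10 genes, so the counts that follow are a description and nothing is read from them. For P10 PBS over P2, edgeR called Grb10 and Cdkn1c lower and none higher, beside 0.548% of all genes lower, 0.38% higher and 0.928% in either direction. Grb10, Cdkn1c and Dlk1 lay wholly below P2, beside 3.12% of all genes, and none lay wholly above it, beside 2.58%. At 4 of 4 replicate numbers, P10 PBS was lower than P2 for Grb10, Cdkn1c, H19 and Dlk1, beside 8.87% of all genes, and higher for Mest and Peg10, beside 8.81%. For P10 EV over P2, only Grb10 was called lower, beside 0.411% of all genes lower, 0.174% higher and 0.585% in either direction, and Grb10, Cdkn1c and H19 lay wholly below P2, beside 4.36%, and none above it, beside 4.66%. The same 3 were lower at 4 of 4 numbers, beside 10.6% of all genes, and Mest was higher, beside 11.7%. The median log2 fold change of the 9 was -0.00 for P10 PBS over P2 and 0.03 for P10 EV over P2, against -0.01 over all genes in each. The call of Cdkn1c for P10 PBS over P2 was lost in the 8 libraries of those groups alone and without P2 replicate 2, 3 or 4 or P10 PBS replicate 1, 2 or 4. The call of Grb10 for P10 EV over P2 was lost without P10 EV replicate 1, 2 or 4, where its log2 fold change lay between -5.10 and -4.44. Without P2 replicate 1, the edgeR calls for P10 PBS over P2 numbered 6 and took in Peg3, Mest and Peg10 as higher and Meg3 as lower, among 1206 genes called in all. For P10 EV over P2 without that library they numbered 5, with Grb10, Cdkn1c and H19 lower and Peg3 and Mest higher, among 2821 genes.

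By parental allele, 3 of the 4 maternally expressed genes, Grb10, Cdkn1c and H19, had a negative log2 fold change in both late groups against P2, and Meg3 had no read in P10 PBS. Of the 6 paternally expressed genes, Dlk1 had a log2 fold change of -1.27 for P10 PBS over P2, Plagl1 of -0.00, and the other 4 lay between 0.18 and 0.89. Of 25 listed neighbours of the 10 genes in the table, 14 entered the fit and edgeR called none in any contrast, with 8 above 0 and 6 below for P10 EV over P10 PBS and 6 above and 8 below for P10 PBS over P2. Their median log2 fold change was 0.09 for P10 EV over P10 PBS and -0.08 for P10 PBS over P2, against 0.01 and -0.01 over all genes. Cep41 was called higher for P10 PBS over P2 by DESeq2 and without P2 replicate 1, and for P10 EV over P2 there were 2 calls without P2 replicate 1, 1 without the libraries with liver transcripts and 0 with DESeq2. At an unadjusted p under 0.05, edgeR had 0 neighbours for P10 EV over P10 PBS, 4 for P10 PBS over P2 and 2 for P10 EV over P2. The shares over all genes were 7.24%, 13.6% and 19.2% in the same order. Cobl, next to Grb10, averaged 2.46 CPM in P10 EV, 2.17 CPM in P10 PBS and 2.95 CPM in P2, with overlapping groups. Counting each of the 10 genes with its neighbours, 3 of 3 genes of the Dlk1 domain were higher in P10 EV than in P10 PBS and lower in P10 PBS than in P2. In the Mest domain, 3 of 3 were lower in P10 EV than in P10 PBS and higher in P10 PBS than in P2. Grb10 and Cobl were both higher in P10 EV than in P10 PBS and lower in P10 PBS than in P2. The other domains with more than 1 gene were mixed in at least 1 of these contrasts: in the Peg3 domain 3 of 3 were higher in P10 EV than in P10 PBS and 2 of 3 higher in P10 PBS than in P2, in the Kcnq1 domain 2 of 4 and 2 of 4, in the Peg10 domain 2 of 5 and 2 of 5, and for Igf2 and H19 0 of 2 and 1 of 2. These are counts of signs alone, beside 51.5% and 48.8% of all genes above 0 in these contrasts. Several signs rest on values within or near their SE. For P10 EV over P10 PBS, Cobl was at 0.16 ± 0.44, Begain of the Dlk1 domain at 0.42 ± 0.46 and Copg2 at -0.12 ± 0.11 (SE). For P10 PBS over P2 they were at -0.43 ± 0.44, -0.19 ± 0.47 and 0.13 ± 0.11 (SE).

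**Figure D4:**
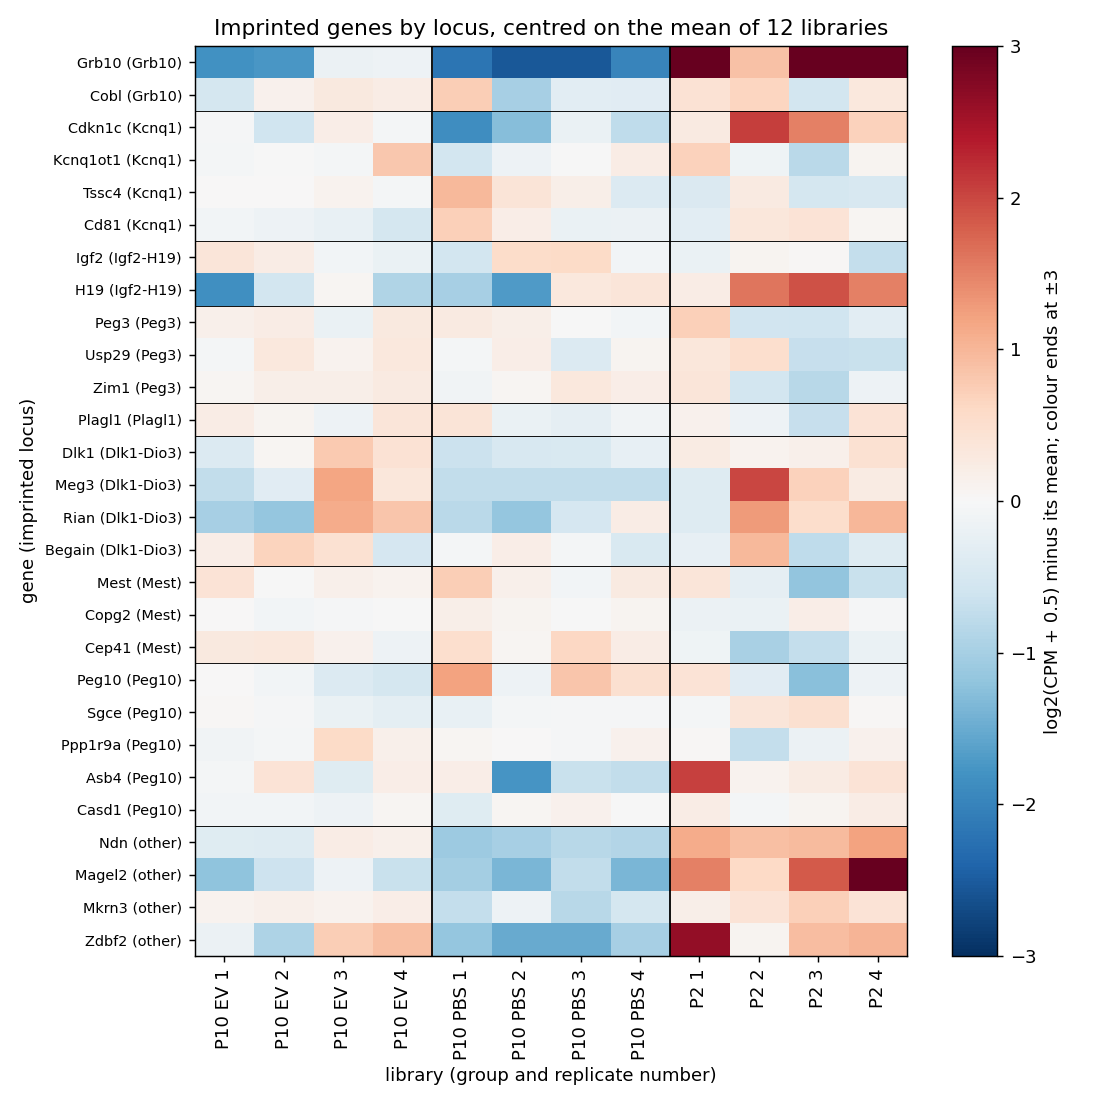
Level of the 10 genes, their neighbours in the fit and 4 other imprinted genes, by domain (rows) and library (columns, P10 EV, P10 PBS and P2), as log2(CPM + 0.5) minus the mean of the gene over all libraries, with colours ending at ±3. The Grb10 row is highest in P2, with P2 replicate 2 at 8.91 CPM the lowest of that group, while Cobl beside it shows no such step.

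The other imprinted genes listed numbered 34, of which 27 entered the fit. Between P10 EV and P10 PBS edgeR called none, with 4 at an unadjusted p under 0.05 beside 7.24% of all genes, and DESeq2 called 3, Ndn, Mkrn3 and Zdbf2. Of the 27, edgeR called for P10 PBS over P2 4 lower and none higher, beside 0.548% of all genes called lower, and for P10 EV over P2 it called 2 lower and none higher, beside 0.411%. Their median log2 fold change was 0.06 for P10 EV over P10 PBS, -0.24 for P10 PBS over P2 and -0.25 for P10 EV over P2, against 0.01, -0.01 and -0.01 over all genes. Above 0 were 5 of 27 for P10 PBS over P2 and 7 of 27 for P10 EV over P2, beside 48.8% of all genes in each. The called genes were Ndn, Magel2 and Mkrn3 of the Prader-Willi domain, all paternally expressed, and Zdbf2, a paternally expressed gene that affects growth after birth in mice. Ndn, which encodes necdin, a protein that slows the cell cycle, had 67.9 ± 15.5 CPM in P10 EV, 36.8 ± 3.04 CPM in P10 PBS and 147 ± 14.4 CPM in P2 (SD, n = 4 each), with no overlap between any of the groups. Over all genes, 3.74% lay wholly higher in P10 EV than in P10 PBS, 3.12% wholly lower in P10 PBS than in P2 and 4.36% wholly lower in P10 EV than in P2. Zdbf2 gave 13, 3, 23 and 35 reads in P10 EV, 2, 0, 0 and 3 in P10 PBS and 117, 14, 26 and 29 in P2, again with replicates 3 and 4 highest in P10 EV. The calls for P10 PBS over P2 held in 23 of 23 settings for Ndn, 20 for Magel2, 17 for Mkrn3 and 14 for Zdbf2. The calls for P10 EV over P2 held in 21 settings for Ndn and 11 for Magel2. The replicate block lost Magel2 there, which left 1 call. With 1 library left out the list had 1 to 6 calls for P10 PBS over P2 and 0 to 9 for P10 EV over P2. Without the libraries with liver transcripts it had 12 and 10. Those of P10 PBS over P2 were lost for Mkrn3 without P2 replicate 3 or 4 or P10 PBS replicate 1, 3 or 4, for Zdbf2 without P2 replicate 4 or any of the 4 P10 PBS libraries, and for Magel2 without P10 PBS replicate 1. Against P2, the calls of P10 EV were lost for Ndn without P10 EV replicate 1 or 2, and for Magel2 without P2 replicate 3 or 4, P10 PBS replicate 1 or 4 or any of the 4 P10 EV libraries. The list was set up with earlier results of these libraries known.

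The 5 tested genes whose log2 CPM followed that of Grb10 most closely over the 12 libraries were Ndn (Pearson r = 0.954), Bcl11b (r = 0.948), Gm13157 (r = 0.935), Slc12a7 (r = 0.926) and Emx2 (r = 0.923). All 12 libraries share the group structure: with the group means removed, r was 0.691 for Ndn, 0.761 for Bcl11b, 0.82 for Gm13157, 0.608 for Slc12a7 and 0.333 for Emx2. Bcl11b, a zinc finger factor of forebrain neurons, averaged 9.76 CPM in P10 EV, 9.12 CPM in P10 PBS and 17.8 CPM in P2. Emx2, a homeodomain factor of the dorsal forebrain, had 9.32 to 12.1 CPM in P10 EV, 6.83 to 10.8 CPM in P10 PBS and 22.4 to 28.9 CPM in P2. Ndn, an imprinted gene of a different domain and chromosome, headed an order that holds the differences from P2 by which Grb10 was chosen. With the group means removed, Gm13157 and Bcl11b stood above Ndn, so nothing is read from its place.

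Of the receptors, adaptors and kinases of insulin and IGF signalling through which Grb10 acts, 30 of 33 listed genes entered the fit and edgeR called none in any of the 3 contrasts. DESeq2 called Igfbp4, another IGF-binding protein, for P10 EV over P10 PBS and 1 gene for P10 EV over P2, where edgeR made 5 calls without P2 replicate 1, 4 without the libraries with liver transcripts and 1 without P10 PBS replicate 2. In the main edgeR fit Igfbp4 was lower in P10 EV than in P10 PBS, at -1.22 ± 0.30 on the log2 scale (SE, adjusted p = 0.421). At an unadjusted p under 0.05 edgeR had 2 of the 30 for P10 EV over P10 PBS, 3 for P10 PBS over P2 and 6 for P10 EV over P2. The shares over all genes were 7.24%, 13.6% and 19.2% in the same order. Their median log2 fold change was -0.05 for P10 EV over P10 PBS, -0.03 for P10 PBS over P2 and -0.11 for P10 EV over P2. The most abundant were Igfbp2, a secreted protein that binds IGFs, and Nedd4, a ubiquitin ligase that forms a complex with Grb10. Igfbp2 had 739 ± 99.7 CPM in P10 EV, 1201 ± 388 CPM in P10 PBS and 989 ± 262 CPM in P2, and Nedd4 1069 ± 167 CPM in P10 EV, 868 ± 168 CPM in P10 PBS and 945 ± 253 CPM in P2 (SD, n = 4 each). For Igfbp2 every P10 EV library lay below every P10 PBS library, with a log2 fold change of -0.70 ± 0.23 (SE, adjusted p = 0.566 in edgeR). Over all genes, 3.84% lay in this way with P10 EV lower.

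Of 14 listed genes that keep or remove imprints, 12 entered the fit and edgeR called none in any contrast. With an unadjusted p under 0.05 in edgeR there were 0 for P10 EV over P10 PBS, 1 for P10 PBS over P2 and 2 for P10 EV over P2. The shares over all genes were 7.24%, 13.6% and 19.2% in the same order. Between P10 EV and P10 PBS 11 of 12 were above 0, beside 51.5% of all genes, with a median log2 fold change of 0.16 against 0.01 over all genes. For P10 PBS over P2 8 of 12 were above 0, beside 48.8%, with a median of 0.14 against -0.01. Other settings made calls: for P10 PBS over P2 there were 1 with DESeq2 and 1 without P10 PBS replicate 4, Zfp57 in both, and 4 without the libraries with liver transcripts, and for P10 EV over P2 there were 5 without the libraries with liver transcripts and 5 without P2 replicate 1. In the main fit Zfp57 was lower for P10 PBS over P2, unlike most of the list, at -1.30 ± 0.375 on the log2 scale (SE). For P10 EV over P10 PBS it was at 0.76 ± 0.37 (SE), and it was called in neither. Trim28, the co-repressor recruited by ZFP57, had 651 ± 34.3 CPM in P10 EV, 599 ± 19.1 CPM in P10 PBS and 496 ± 182 CPM in P2, and Dnmt1, the methyltransferase that copies methylation at replication, had 459 ± 29.2 CPM in P10 EV, 379 ± 22.9 CPM in P10 PBS and 275 ± 160 CPM in P2 (SD, n = 4 each). Every P10 EV library held more Dnmt1 than every P10 PBS library, by 0.28 ± 0.31 on the log2 scale (SE, adjusted p = 0.890 in edgeR). Over all genes, 3.74% lay in this way with P10 EV higher. Within P2, replicates 3 and 4 had the lowest Dnmt1, at 121 and 173 CPM, against 474 and 332 CPM in replicates 1 and 2.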

How the data were processed

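Polyadenylated RNA was sequenced as paired ends, per the labels' protocols. The authors deposited 1 table for 12 libraries that holds, per gene, raw read counts beside FPKM, which divide them by library total and gene length. HISAT2 2.0.4 and StringTie 1.3.0 stand in the submitters' processing notes without a role. The labels and headers used here name neither the counting program, nor its use of strand, nor the genome build. The table lists 34745 gene identifiers, of which 34267 are in GENCODE M21 (GRCm38), 80.8% of them with the same coordinates, as for 8 of the 10 genes; coordinates are as deposited. Columns were matched to samples by library name, leaving 0 unused.

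The members and lists were chosen with earlier results of these data known. All genes with enough reads (filterByExpr, minimum count 10, 16058 genes) were fitted in edgeR 4.0.16 (R 4.3.3) with TMM scaling, 1 mean per group over 12 libraries and the quasi-likelihood test; p-values were adjusted by Benjamini-Hochberg over all 16058, and genes under 0.05 were called. CPM are counts over the TMM-adjusted total. FPKM serve only to compare genes. The steps were tested on simulated data. Genes named besides the 10 are, of each list, up to 4 called per contrast or the 2 most abundant where none was called, measured or unread neighbours, and the 5 most like Grb10; the unread neighbours Phlda2, Ins2 and Dio3, the markers, Igfbp4 and Zfp57 were chosen after their values were seen.

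Deviations from the group means correlated between P10 EV and P10 PBS libraries of one replicate number at 0.37, 0.148, 0.138 and 0.208 in order of the numbers. The P10 PBS library most like P10 EV had the same number for replicates 1, 2 and 4. For P10 EV replicate 3 it was P10 PBS replicate 4, so the check bears out the pairing only in part. The library names give the same culture code to a number in all 3 groups, while nothing in the labels ties a code to 1 animal. Other settings tried were DESeq2 1.42.0 (its size factors in edgeR, and its own Wald test), limma 3.58.1 (voom, and trend on log2(FPKM + 1) and log2(FPKM + 0.1)), no filter, the 8 libraries of a contrast alone, a replicate block, a term for sex as read from Xist, omission of the 4 libraries with liver transcripts, and of each library in turn. The Meg3 ratios without the library that leads its group were added after seeing the data. Intervals and limits for counts of 0 cover counting error only.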

Additional observations from a re-analysis of the deposited data

Results flagged for a closer look

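Among the 10 genes, Peg3 in P2 replicate 1, at 488.9 CPM, stood apart from the other 3 P2 libraries, which lay between 196.8 and 239.2 CPM. Its gap to the nearest of them was 0.855 of the range of the group, above Dixon's 95% critical value for 4 libraries. The rule was applied to 29 groups of 4 values, and chance alone flags about 1 in 20. P2 replicate 1 was also the highest of its group in Mest and Peg10, at 888 and 680 CPM.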

How the results depend on the processing

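No alternative called any of the 10 genes for P10 EV over P10 PBS, and the adjusted p of Grb10 lay between 0.218 and 1.00 over the 23 settings. Its log2 fold change there lay between 1.80 and 2.46 with 1 library left out and stood at 0.25 on log2(FPKM + 1), where the added 1 exceeds its level. Over all genes, this contrast had 67 calls with DESeq2, 2 in the 8 libraries alone and 0 to 1 with 1 library left out. For P10 PBS over P2, the calls numbered 592 with DESeq2, 38 in the 8 libraries alone, 2320 without the libraries with liver transcripts, 252 with a term for sex and 41 to 1206 with 1 library left out. For P10 EV over P2 they numbered 924, 30, 3335, 167 and 8 to 2821 in the same order. Without the libraries with liver transcripts, P2 kept only replicates 3 and 4, both low in Xist, while each late group kept replicate 2, high in Xist.

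Of the 10 genes, calls for P10 PBS over P2 fell to 1 with limma-voom and in the 8 libraries alone, and ran from 1 to 6 with 1 library left out. For P10 EV over P2 there were 3 with DESeq2, 0 with limma-voom and in the 8 libraries alone, 5 without the libraries with liver transcripts and 0 to 5 with 1 library left out. Grb10 kept its direction in every setting. Its log2 fold change, given as a description since these contrasts entered its choice, was -6.41 for P10 PBS over P2 and -4.57 for P10 EV over P2 with limma-voom, and -4.76 for P10 EV over P2 in the 8 libraries alone, settings in which Grb10 was not among the calls. With 1 library left out its fold changes ran from -7.28 to -6.59 for P10 PBS over P2 and from -5.13 to -4.44 for P10 EV over P2. The cause was not tested.

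Signs turned only for fold changes near 0. Igf2 for P10 EV over P10 PBS was 0.033 with limma-voom. Plagl1 for P10 PBS over P2 was 0.0407 with limma-voom, 0.0016 on log2(FPKM + 1), 0.0216 on log2(FPKM + 0.1), 0.0066 with no filter and 0.0279 with the replicate block. Dlk1 for P10 EV over P2 was -0.13 with limma-voom, -0.0563 with the replicate block and -0.048 with a term for sex. Peg10 for P10 EV over P2 was 0.0803 with limma-voom, 0.13 on log2(FPKM + 1), 0.14 on log2(FPKM + 0.1), 0.05 with the replicate block and 0.28 without the libraries with liver transcripts. With 1 library left out, ranges that crossed 0 were -0.43 to 0.11 for Igf2, -0.24 to 0.0384 for Mest and -0.025 to 0.14 for Peg3 (P10 EV over P10 PBS), -0.17 to 0.18 for Plagl1 (P10 PBS over P2), and -0.0122 to 0.34 for Plagl1, -0.28 to 0.31 for Dlk1 and -0.26 to 0.28 for Peg10 (P10 EV over P2).

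With the replicate block, Grb10 stood at 2.11 for P10 EV over P10 PBS (adjusted p = 0.564), -6.76 for P10 PBS over P2 and -4.66 for P10 EV over P2, and the block changed no call among the 10 genes. Among the other imprinted genes it took the calls for P10 EV over P2 to 1. By the same check, same-numbered libraries correlated at 0.0874 to 0.187 for P10 EV with P2 and at -0.0845 to 0.211 for P10 PBS with P2, although the culture codes match. Depth limits Igf2, Dlk1, Meg3 and the late Grb10, Cdkn1c and H19 levels, which rest on at most 66 reads a library.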
